A study of Mus musculus with 16 samples.

Results

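The comparison described here is that of ribosome-bound mRNA from intrinsically photosensitive retinal ganglion cells (ipRGCs). It sets mice with intact Brn3b, which encodes the transcription factor BRN3B, against mice with its conditional deletion in ipRGCs. It rests on the second of 2 deposited count tables, whose 8 columns hold 4 control and 4 Brn3bcKO libraries, out of 16 libraries in the series. All 47454 gene symbols of that table were read, each through 1 transcript, that with the highest mean count over the 8 libraries, and 13930 genes had enough counts to be tested. Control mice carried Opn4-Cre and Rpl22-HA, and Brn3bcKO mice carried Opn4-Cre, Rpl22-HA and the Brn3b cKOAP allele, which the study's methods give as homozygous. Both groups were at postnatal day 60, on a mixed B6/129 background, with both retinas of an animal combined in a sample. By the labels, control 3 and Brn3bcKO 4 were female and the other 6 libraries male.

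BRN3B, the product of Pou4f2, is a POU-domain factor that is switched on as retinal ganglion cells (RGCs) leave the cell cycle and that drives much of their gene expression and axon growth. ipRGCs are the RGCs that make melanopsin, the photopigment encoded by Opn4, and their subtypes differ in melanopsin level, dendritic arbor, brain targets and BRN3B level. In translating ribosome affinity purification (TRAP), an HA-tagged ribosomal protein, here RPL22, is switched on by Cre recombinase, and an antibody against HA then pulls down (immunoprecipitates, IP) their ribosomes with the mRNA being read. Opn4-Cre turns on when ipRGCs begin to make melanopsin, after they have left the cell cycle, so that Brn3b is removed from ipRGCs late and other RGCs keep it. The study describes this excision as imperfect. In bulk libraries such as these, fewer cells of a type and less RNA per cell cannot be told apart.

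Each library held 12994498 to 20350881 counts over all transcripts and 6318826 to 10132992 over the genes tested. Levels are CPM, counts scaled to library size, after TMM scaling, and a gene was called at an adjusted p under 0.05 by the quasi-likelihood test of edgeR with Benjamini-Hochberg adjustment over the 13930 genes, on 6 residual degrees of freedom. Libraries correlated at 0.941 to 0.975 across genes on the log2 scale. Counts of Y-linked genes and of Xist matched the labelled sex in 8 of 8 libraries. Rpl22-HA libraries hold RNA of other retinal cells too, and the summed CPM of 15 cone genes ran from 10108 to 16452 in control and from 18944 to 26284 in Brn3bcKO. The sum of 20 pan-RGC genes ran from 9408 to 12216 in control and from 5512 to 7494 in Brn3bcKO. The sum of 16 ipRGC genes overlapped between groups, at 903 to 1110.0 CPM against 725 to 1081. A further 24 lens genes, chosen after their values were seen, summed to 6.32 to 12.8 CPM in control and to 45.8, 692, 403 and 53.7 CPM in Brn3bcKO 1 to 4. Each member of these lists had counts in at least 1 of the 8 libraries. The part of any of these lists in the gene changes given here was not tested.

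**Figure D1:**
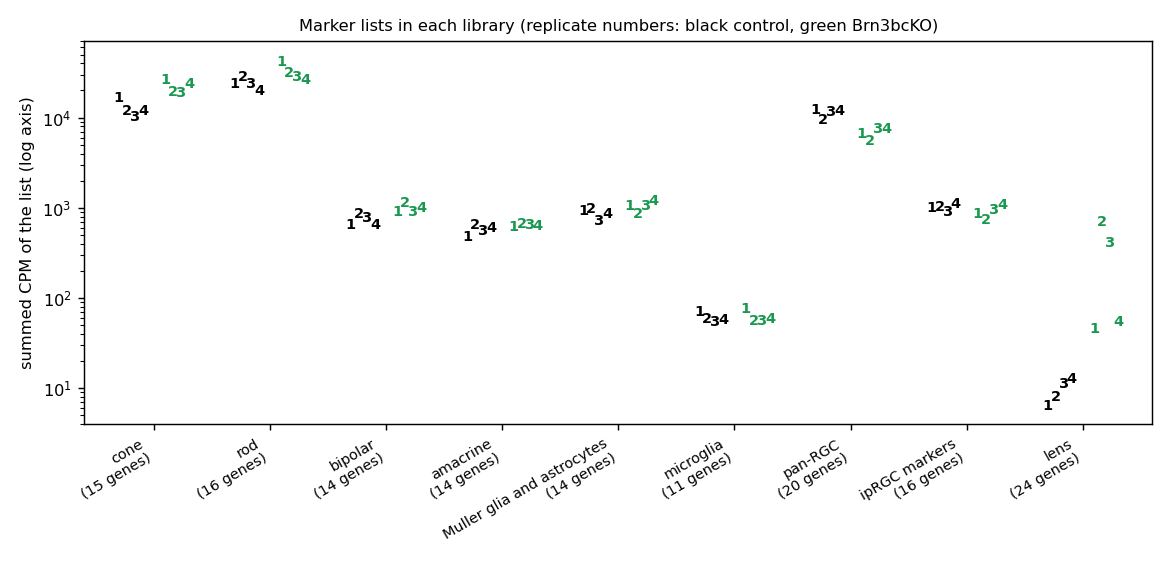
Summed CPM (log axis) of 9 marker lists in each of the 8 libraries, printed as replicate numbers, black for control and green for Brn3bcKO. Cone and pan-RGC sums lay apart between the groups in opposite directions, ipRGC sums overlapped, and lens sums were highest in Brn3bcKO 2 and 3.

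Pou4f2 itself was read first. It stood at 73.4, 92.8, 111 and 124 CPM in control and 37.5, 49.9, 66.7 and 68.3 CPM in Brn3bcKO, in the order of replicates 1 to 4, the order used throughout. The groups did not overlap, with a log2 fold change of -0.85 (SE 0.21), but the gene was just outside the threshold (adjusted p = 0.0537), and it passed at 0.0406 when only genes with a mean count of at least 50 were tested. It did not pass when scaled on IP-enriched genes (0.0843), with sex as a covariate (0.0613) or in male libraries alone (0.139). A single transcript is listed for Pou4f2 (chr8:78433010-78436645, minus strand, mm10), so that the deleted part could not be read apart from the rest of the mRNA. Opn4, the melanopsin gene, stood at 94.2, 71.7, 81.9 and 113 CPM in control and 101, 65.7, 65.4 and 80.6 CPM in Brn3bcKO. Its libraries overlapped between groups (log2 fold change -0.21, SE 0.19, adjusted p = 0.623). Eomes, the T-box factor needed for ipRGC formation, stood at 147, 124, 118 and 141 CPM in control and 96.4, 80.3, 117 and 153 CPM in Brn3bcKO and overlapped too (log2 fold change -0.25, SE 0.19, adjusted p = 0.551). The sign for Opn4 and for Eomes turned when libraries were scaled on genes enriched in the HA IP (0.10 and 0.04). By in situ hybridization the study reports higher Opn4 and Eomes mRNA in single ipRGCs of Brn3bcKO retinas, a measure per cell unlike the bulk levels here.

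Across all genes, 124 were higher and 194 lower in Brn3bcKO, 318 of 13930 or 2.28%, with 0.89% called higher and 1.39% called lower. Of these, 45 rose and 92 fell by more than 2-fold. Groups of 4 and 4 libraries did not overlap for 1498 genes (10.8%), among them all 318 called. Before adjustment, 1204 genes were higher and 1230 lower at p under 0.05. The genes that fell had a median log2 fold change of -0.98 and those that rose 0.91, against a median of 0.04 over all genes. Of the genes called, 10 of the 124 and 63 of the 194 were called again in each of 8 fits that left out 1 library. Among those 10 were the lens crystallins Cryaa, Cryba1, Cryba2, Crybb2 and Crygs, and among those 63 were Gm765 and Ntsr2. No test is given for these, since some had enough counts only through the group where they were high. The 124 higher genes include 7 lens genes. Without control 3 the calls numbered 17 and 69, and without control 4 they numbered 18 and 70. Without Brn3bcKO 2 and 3, the libraries richest in lens genes, 43 genes were higher and 52 lower, of which 29 and 49 were among those called with all libraries. Scaling on genes enriched in the HA IP moved the median of all genes by 0.30, to 0.33, and the calls to 1468 higher (92.5% of calls) and 119 lower, against 39% higher with all genes. Of the 194 lower genes, 116 were called under both scalings, and a list median between 0 and -0.30 changed sign. Gene lists other than those the study curated were written with earlier results of these data known, so that a share called in a list is no test. Over all genes, the share called lower ran from 0% of those depleted over 2-fold in the IP of the first count table to 14% of those enriched over 4-fold. Of the genes named here, Anxa2, Anxa5, Cacng5, Camk1, Clic1, Ctsl, Degs1, Esyt1, Gabbr2, Gng4, Irx2, Irx6, Pdgfa, Pdk1, Prph, Rbfox1, Scn1a, Scn3b, Sgpp2, Snrpn, Sox4, Tpi1 and Zwint had no call under that scaling.

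**Figure D2:**
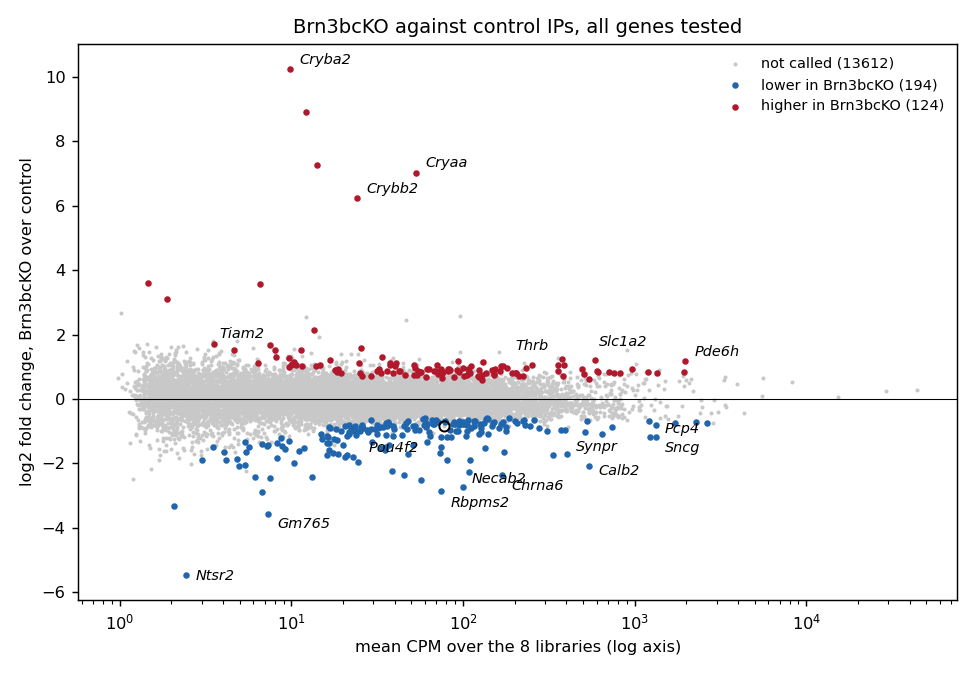
Log2 fold change of Brn3bcKO over control against mean CPM over the 8 libraries (log axis) for 13930 genes, with the 194 called lower in blue, the 124 called higher in red and Pou4f2 circled. Lens crystallin genes (Cryaa, Cryba1, Cryba2, Crybb2 and Crygs) are the points above 6, and Ntsr2 is the point below -5.

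The smallest adjusted p belonged to Necab2, which encodes a neuronal EF-hand calcium-binding protein. Necab2 measured 199, 134, 219 and 138 CPM in control and 22.5, 29.1, 27.9 and 25.2 CPM in Brn3bcKO. No Brn3bcKO library of Necab2 reached the lowest control library (log2 fold change -2.72, SE 0.20, adjusted p = 2.19e-05). Rbpms2, an RNA-binding protein found in RGCs, measured 130.5, 96.1, 131 and 167 CPM in control and 13.9, 23.4, 23.3 and 12.8 CPM in Brn3bcKO. All 4 Brn3bcKO libraries lay below all 4 of control (log2 fold change -2.84, SE 0.24, adjusted p = 7.55e-05). Tmeff2, a transmembrane protein with follistatin-like and EGF-like domains, measured 51.1, 65.9, 80.1 and 57.8 CPM in control and 10.7, 13.8, 13.8 and 15.5 CPM in Brn3bcKO. Tmeff2 fell in each Brn3bcKO library (log2 fold change -2.24, SE 0.19, adjusted p = 7.55e-05). Tmem163, which encodes a zinc transporter, measured 112, 52.8, 97 and 125 CPM in control and 18, 14.5, 18.3 and 16.6 CPM in Brn3bcKO, and its Brn3bcKO libraries lay within a narrow band below every control library. The groups lay apart, with Tmem163 lower in Brn3bcKO (log2 fold change -2.52, SE 0.24, adjusted p = 0.00015). Tppp3, which encodes a tubulin-binding protein, measured 575, 383, 583 and 514 CPM in control and 157, 145, 173 and 137 CPM in Brn3bcKO. Each control library held more Tppp3 than any Brn3bcKO library (log2 fold change -1.75, SE 0.17, adjusted p = 0.000174). Among the genes with the largest falls and a mean count of at least 50 were also Pirt, which encodes a membrane protein that modulates TRP channels in sensory neurons (-2.46), Tusc5 (-2.34), Stbd1, a glycogen-binding protein (-1.98), Atp6ap1l (-1.95), Gm765 (-3.56) and D930028M14Rik (-2.88). Gm765 measured 13.9, 8.06, 14.9 and 17.4 CPM in control and 0, 1.05, 0.899 and 2.32 CPM in Brn3bcKO, and had enough counts to be tested only through the control libraries. Each gene of this paragraph other than Gm765, for which no test is given, was called in all 8 fits that left out a library.

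**Figure D3:**
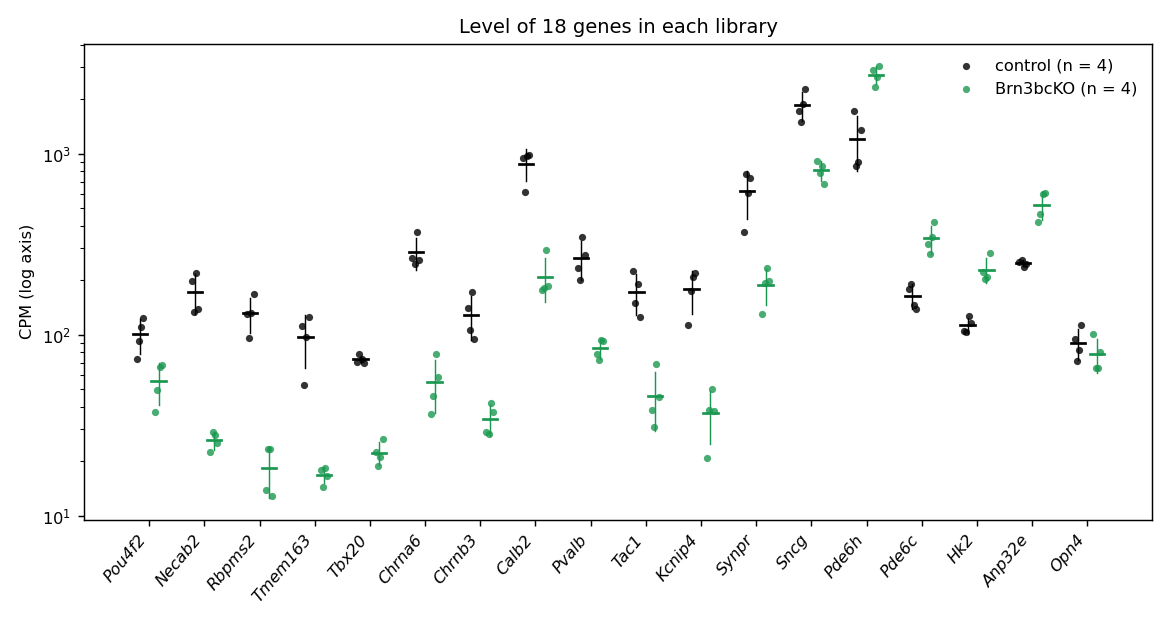
CPM (log axis) of 18 genes in each of 4 control (black) and 4 Brn3bcKO (green) libraries, with the mean as a bar and the SD as a line. The groups do not overlap for any gene shown except Opn4, at the right.

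Of 19 pan-RGC genes tested, 4 fell and none rose (median -0.58), where 1.39% of all genes were lower. Rbpms2 has been given. Sncg, which encodes gamma-synuclein, an abundant RGC protein, measured 1729.7, 1493, 1888 and 2282 CPM in control and 913, 784, 859 and 676 CPM in Brn3bcKO. The fall of Sncg left no overlap between the groups (log2 fold change -1.19, SE 0.18, adjusted p = 0.004). Nrn1, which encodes neuritin, a secreted promoter of neurite growth, went from 522 ± 71.8 to 267 ± 30.8 CPM (SD, n = 4 each; log2 fold change -0.97, SE 0.16, adjusted p = 0.00838). Pou4f1, which encodes the BRN3B paralog BRN3A, measured 105, 64.7, 105 and 78.4 CPM in control and 28.4, 35.2, 50.9 and 45.4 CPM in Brn3bcKO. No Brn3bcKO library of Pou4f1 reached the lowest control library (log2 fold change -1.14, SE 0.21, adjusted p = 0.0152). Pou4f1 was the only gene of 9 POU factors tested that was called, Pou4f2 being just outside. Of the 15 pan-RGC genes not called, 14 had a log2 fold change below 0, such as the neurofilament gene Nefl (-0.74, adjusted p = 0.0537) and Rbpms (-0.85, adjusted p = 0.0528), of which 2 further transcripts were called when all transcripts were tested (-1.11 and -1.27). The median stayed below 0 when scaled on IP-enriched genes (-0.28). The count of 4 became 2 without Brn3bcKO 2 and 3, and the call of Pou4f1 was lost without control 3 (adjusted p = 0.0708).

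Of 16 genes that mark ipRGCs, 3 were lower and none higher, with a median of 0.13, where 1.39% of all genes were lower. Tbx20, a T-box transcription factor of ipRGC subtypes, measured 71, 77.9, 73.8 and 70.2 CPM in control and 22.7, 18.9, 21.2 and 26.5 CPM in Brn3bcKO. All 4 Brn3bcKO libraries lay below all 4 of control (log2 fold change -1.71, SE 0.16, adjusted p = 0.00015). Kcns3, a modifier subunit of voltage-gated potassium channels, went from 21.1 ± 6.21 to 8.88 ± 2.2 CPM (log2 fold change -1.25, SE 0.26, adjusted p = 0.0255), and Irx1, an Iroquois homeobox factor, from 22.7 ± 4.93 to 9.83 ± 3.84 CPM (log2 fold change -1.19, SE 0.28, adjusted p = 0.0424). The pituitary adenylyl cyclase-activating peptide gene Adcyap1, which ipRGC axons release, was not called (0.24, adjusted p = 0.632). Of 16 genes of melanopsin phototransduction tested, only Gna14, a G-protein alpha subunit of the Gq class, was called, at 5.09, 3.8, 4.6 and 2.94 CPM in control and 12.4, 8.54, 9.89 and 16.6 CPM in Brn3bcKO. Gna14 rose in each Brn3bcKO library (log2 fold change 1.53, SE 0.30, adjusted p = 0.0167). The calls of these genes apart from Tbx20 were lost when single libraries were left out: Kcns3 (3 libraries, 0.119 without control 3), Irx1 (6 libraries, 0.126 without control 3) and Gna14 (3 libraries, 0.071 without control 4). Without Brn3bcKO 2 and 3, or in the 6 male libraries, 1 of the 3 falls was called.

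A pair of lists that the study curated from public single-cell data, 20 genes each enriched in ipRGC subtypes with high or with low Brn3b, were read across the same fit. By the study's methods the choice rested on a comparison of single-cell clusters, and several transcripts of a gene stand in its lists where 1 for each gene was read here. From the high list 11 of 20 fell and none rose (median -1.06), where 1.39% of all genes fell. From the low list Gna14 alone was called (median 0.14). Fallen members of the high list not yet given were Chrna6, Chrnb3, Cpne8, Tac1, Syt6, Htr1d, 1500009L16Rik, Grin2a and Anxa2. Htr1d, a serotonin receptor, went from 62.4 ± 4.69 to 32.4 ± 4.9 CPM (log2 fold change -0.95, SE 0.16, adjusted p = 0.00871). The high-list count was 9 to 12 when a library was left out and 8 without Brn3bcKO 2 and 3.

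Transcription factors of further families were called in both directions, where 0.89% of all genes were higher and 1.39% lower. In a list of 17 Iroquois and other homeobox factors tested, Irx6 (from 149.6 ± 31.1 to 83.6 ± 16.2 CPM; log2 fold change -0.84, SE 0.19, adjusted p = 0.0363), Irx1 and Irx2 (log2 fold change -0.91, SE 0.21, adjusted p = 0.043) fell and Meis2, a TALE homeobox factor, rose (log2 fold change 0.87, SE 0.19, adjusted p = 0.0268). The other Iroquois genes Irx3 (-0.14), Irx4 (-0.13) and Irx5 (-0.44) were not called. The list's 3 falls became 0 to 3 with a library left out. They became 0 in male libraries alone, with all transcripts fitted and without Brn3bcKO 2 and 3. Among 21 KLF, SOX and FOX factors Sox4, which acts in RGC development, fell (log2 fold change -0.94, SE 0.23, adjusted p = 0.0496), among 19 bHLH and EBF factors Bhlhe22 rose (log2 fold change 0.99, SE 0.24, adjusted p = 0.0493), and among 26 nuclear receptors the thyroid hormone receptor gene Thrb rose. Outside these lists, Eya1, a transcriptional co-activator with phosphatase activity, fell from 8.32 ± 0.796 to 2.62 ± 0.579 CPM (log2 fold change -1.64, SE 0.29, adjusted p = 0.0114) and was called in each fit that left out a library. The other calls were lost without some libraries: Irx6 (6 libraries, 0.125 without control 4), Irx2 (6 libraries, 0.126 without control 4), Meis2 (5 libraries, 0.115 without control 3), Sox4 (6 libraries, 0.179 without control 3) and Bhlhe22 (8 libraries, 0.167 without control 3).

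**Figure D4:**
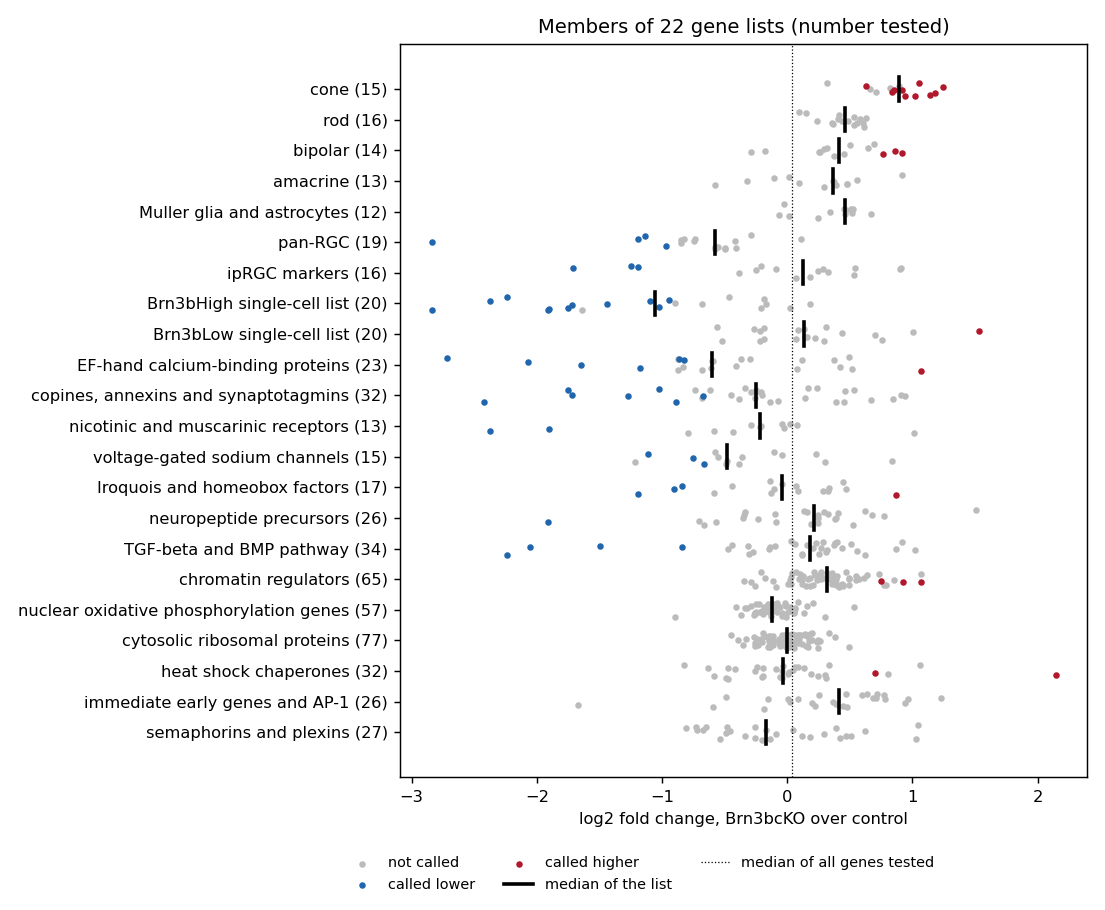
Log2 fold change of each tested member of 22 gene lists, blue for called lower, red for called higher and grey for not called, with the list's median as a black bar and the median of all genes, 0.04, as a dotted line. The high-Brn3b list (median -1.06) and the cone list (0.89) lie farthest to the left and right, and ribosomal protein genes gather about 0.

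Receptors for transmitters gave some of the largest falls, where 1.39% of all genes were lower. Chrna6 and Chrnb3 encode subunits that join in nicotinic acetylcholine receptors and are neighbours on chromosome 8. Chrna6 measured 264, 247, 367 and 260.1 CPM in control and 36.5, 46.1, 78 and 58.8 CPM in Brn3bcKO. Chrna6 fell in each Brn3bcKO library (log2 fold change -2.37, SE 0.23, adjusted p = 0.000154). Chrnb3 measured 141, 106, 171 and 94.3 CPM in control and 29, 28.3, 42.2 and 37.2 CPM in Brn3bcKO. The groups lay apart, with Chrnb3 lower in Brn3bcKO (log2 fold change -1.90, SE 0.21, adjusted p = 0.00055). The other 11 tested genes of the nicotinic and muscarinic list were not called, among them Chrnb2 (-0.43) and Chrna4 (-0.29). Of 18 GABA-A and glycine receptor genes, Gabrg3 fell from 32.6 ± 5.47 to 9.59 ± 2.75 CPM (log2 fold change -1.75, SE 0.24, adjusted p = 0.00237) and Gabrg1 from 13.8 ± 4.37 to 4.62 ± 1.99 CPM (log2 fold change -1.56, SE 0.36, adjusted p = 0.0375), which both encode gamma subunits. Of 16 ionotropic glutamate receptor genes, Grin2a, an NMDA receptor subunit, measured 75.6, 81.5, 63.7 and 77.8 CPM in control and 11.3, 29.9, 35.2 and 33.2 CPM in Brn3bcKO. Each control library held more Grin2a than any Brn3bcKO library (log2 fold change -1.44, SE 0.27, adjusted p = 0.0147). Cacng5, a TARP auxiliary subunit of AMPA receptors, fell (log2 fold change -0.84, SE 0.17, adjusted p = 0.0221), as did Gabbr2, a GABA-B receptor subunit (log2 fold change -0.78, SE 0.17, adjusted p = 0.0266). Calls lost with a library left out were Gabrg1 (5 libraries, 0.132 without control 3), Cacng5 (4 libraries, 0.0742 without control 3) and Gabbr2 (5 libraries, 0.0903 without control 3).

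Of peptide and hormone genes tested, 1 of 26 precursors and 3 of 20 receptors fell and none rose, where 1.39% of all genes were lower. When scaled on IP-enriched genes, 5 precursors were higher and 1 lower, and 2 receptors were higher and 3 lower. Tac1, the precursor of substance P, measured 225, 149, 189.7 and 126 CPM in control and 38.3, 31, 68.8 and 45.1 CPM in Brn3bcKO. The fall of Tac1 left no overlap between the groups (log2 fold change -1.91, SE 0.25, adjusted p = 0.00159). Among the receptors, Crhr1, a receptor for corticotropin-releasing hormone, went from 29.4 ± 1.33 to 13.8 ± 1.42 CPM (log2 fold change -1.09, SE 0.17, adjusted p = 0.00609), and Ramp1, which partners the CGRP receptor, from 69.3 ± 14.1 to 35.9 ± 4.26 CPM (log2 fold change -0.95, SE 0.18, adjusted p = 0.0156). Ntsr2, a neurotensin receptor, measured 1.7, 2.89, 2.68 and 11.9 CPM in control and 0, 0, 0.225 and 0.101 CPM in Brn3bcKO, and held 140 counts in control against 3 in Brn3bcKO, a ratio of 50.2 with an exact 95% binomial interval of 16.8 to 246 that covers counting error only. Control 4 gave most of the Ntsr2 counts (85). The gene had enough counts to be tested only through the control libraries, so that its place among the 3 receptors is no result. The fall of Ramp1 was lost without 3 of the libraries, at up to 0.0742 without control 3.

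Voltage-gated channels and the proteins that bind them were called in both directions, where 0.89% of all genes were higher and 1.39% lower. Kcnip4, which encodes a calcium sensor of Kv4 channels, measured 113, 173, 207 and 219.8 CPM in control and 20.9, 38.6, 50.2 and 38 CPM in Brn3bcKO. No Brn3bcKO library of Kcnip4 reached the lowest control library (log2 fold change -2.27, SE 0.26, adjusted p = 0.000658). Kcnd2, the Kv4.2 subunit, measured 56.9, 42.1, 53.9 and 44.6 CPM in control and 10.2, 13.3, 18.1 and 26.7 CPM in Brn3bcKO. All 4 Brn3bcKO libraries lay below all 4 of control (log2 fold change -1.52, SE 0.26, adjusted p = 0.00838). Kcnip1, a relative of Kcnip4, went from 159 ± 23.7 to 92.6 ± 5.62 CPM (log2 fold change -0.78, SE 0.15, adjusted p = 0.0167). Among 13 auxiliary potassium channel subunits Kcnab1 rose (log2 fold change 1.11, SE 0.23, adjusted p = 0.0217) with Kcne2, and among 21 Kv1 to Kv4 genes Kcnv2, a modifier subunit expressed in photoreceptors, rose (log2 fold change 1.05, SE 0.23, adjusted p = 0.0317). Cacnb3, a calcium channel beta subunit, measured 138, 84.7, 104 and 121 CPM in control and 28.9, 33.4, 45.9 and 30.9 CPM in Brn3bcKO. Cacnb3 fell in each Brn3bcKO library (log2 fold change -1.68, SE 0.20, adjusted p = 0.000708). Cacnb2, another beta subunit, rose from 58.5 ± 7.82 to 91.8 ± 11.3 CPM (log2 fold change 0.65, SE 0.16, adjusted p = 0.0485). Of 15 sodium channel genes tested, Scn4b (-1.11, adjusted p = 0.0327), Scn3b (-0.75, adjusted p = 0.0363) and Scn1a (-0.66, adjusted p = 0.0427) fell and none rose (median -0.48), where 1.39% of all genes were lower. That count was 1 when scaled on IP-enriched genes, 0 without Brn3bcKO 2 and 3 and without any 1 of 6 libraries. Leaving out a library ended the calls of Kcnip1 (3 libraries, 0.0714 without control 3), Kcnab1 (4 libraries, 0.0974 without control 3), Kcnv2 (6 libraries, 0.133 without control 4), Cacnb2 (6 libraries, 0.176 without control 3), Scn4b (7 libraries, 0.0807 without control 3), Scn3b (7 libraries, 0.11 without control 4) and Scn1a (6 libraries, 0.148 without control 3).

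Among ion pump genes, Fxyd7, a brain modulator of the sodium pump, measured 83.8, 74.7, 90.3 and 107 CPM in control and 42.8, 32, 35 and 30.1 CPM in Brn3bcKO. The groups lay apart, with Fxyd7 lower in Brn3bcKO (log2 fold change -1.35, SE 0.17, adjusted p = 0.00152). Atp2b4, a plasma membrane calcium pump, fell from 124 ± 16.7 to 62.2 ± 11 CPM (adjusted p = 0.0084). Atp1b2, a sodium pump beta subunit, rose from 252 ± 28.3 to 460.2 ± 44.5 CPM (log2 fold change 0.87, SE 0.15, adjusted p = 0.0105), though not without control 3 or control 4 (adjusted p up to 0.0648). These were among 22 pump and exchanger genes tested, of which 2 rose and 2 fell, where 0.89% of all genes were higher and 1.39% lower. The other rise was that of Slc24a4, a potassium-dependent sodium and calcium exchanger (log2 fold change 0.85, SE 0.20, adjusted p = 0.0405). With a library left out the call lost was Slc24a4 (7 libraries, 0.145 without control 4).

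Calcium-binding proteins of the EF-hand class fell in 6 of 23 genes tested and rose in 1 (median -0.60), a share of 26.1% lower where 1.39% of all genes were. The list was written with earlier results of these data known, so that this share is no test. After Necab2, the largest fall was that of Calb2, which encodes calretinin and measured 949.7, 614, 975 and 979 CPM in control and 177, 181, 295 and 185 CPM in Brn3bcKO. Each control library held more Calb2 than any Brn3bcKO library (log2 fold change -2.07, SE 0.22, adjusted p = 0.000313). Pvalb, which encodes parvalbumin, measured 234, 199.7, 348 and 275 CPM in control and 78.3, 72.3, 93.9 and 92.6 CPM in Brn3bcKO. The fall of Pvalb left no overlap between the groups (log2 fold change -1.65, SE 0.19, adjusted p = 0.000658). S100b went from 118 ± 9.72 to 52.1 ± 7.32 CPM (log2 fold change -1.18, SE 0.15, adjusted p = 0.00159), Hpca, which encodes hippocalcin, from 316 ± 30.03 to 178 ± 24.8 CPM (log2 fold change -0.83, SE 0.16, adjusted p = 0.0153) and S100a10 from 229 ± 36.7 to 126 ± 17.2 CPM (log2 fold change -0.86, SE 0.17, adjusted p = 0.0172), while S100a1 rose (log2 fold change 1.07, SE 0.21, adjusted p = 0.0167). Calb1 (-0.83, adjusted p = 0.0736) was not called. The list median remained below 0 when scaled on IP-enriched genes (-0.31). The count of 6 was 4 to 8 with a library left out and 4 without Brn3bcKO 2 and 3, and leaving out a library ended the calls of Hpca (2 libraries, 0.0681 without control 3), S100a10 (3 libraries, 0.0777 without control 3) and S100a1 (2 libraries, 0.0823 without control 3).

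A second calcium-linked family, the copines, annexins and synaptotagmins, fell in 7 of 32 genes tested with none higher (median -0.25), where 1.39% of all genes were lower. When scaled on IP-enriched genes the list had 4 members higher and 4 lower, and its median was 0.04. Cpne4 measured 23, 22.5, 29.3 and 13.9 CPM in control and 2.07, 2.4, 6.29 and 5.35 CPM in Brn3bcKO. No Brn3bcKO library of Cpne4 reached the lowest control library (log2 fold change -2.42, SE 0.35, adjusted p = 0.00344). Cpne8 measured 32.1, 29.8, 30.6 and 21.7 CPM in control and 6.54, 7.64, 10.9 and 9.38 CPM in Brn3bcKO. All 4 Brn3bcKO libraries lay below all 4 of control (log2 fold change -1.72, SE 0.22, adjusted p = 0.00158). Syt6, an atypical synaptotagmin, went from 24.9 ± 4.02 to 7.45 ± 2.02 CPM (log2 fold change -1.75, SE 0.24, adjusted p = 0.00214). Syt1, the calcium sensor of fast release, was not called (0.45, adjusted p = 0.288). The remaining falls were those of Syt16 (-1.28, adjusted p = 0.0183), Esyt1 (-0.89, adjusted p = 0.0282), Anxa2 (-1.03, adjusted p = 0.0441) and Anxa5 (-0.67, adjusted p = 0.0489). With a library left out the count was 3 to 6, and it was 4 without Brn3bcKO 2 and 3. Not called in every fit on 7 libraries were Syt16 (2 libraries, 0.0708 without control 3), Esyt1 (5 libraries, 0.126 without control 3), Anxa2 (6 libraries, 0.167 without control 3) and Anxa5 (7 libraries, 0.171 without control 3).

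Genes of the synapse changed singly, where 0.89% of all genes were higher and 1.39% lower. Synpr, which encodes the vesicle protein synaptoporin, measured 369.6, 775, 604 and 738 CPM in control and 131, 192, 232 and 198 CPM in Brn3bcKO. Synpr fell in each Brn3bcKO library (log2 fold change -1.72, SE 0.24, adjusted p = 0.00264). Of 29 vesicle protein genes tested 3 fell, Synpr and Sncg among them, and none rose (5 higher and 3 lower when scaled on IP-enriched genes), where 1.39% of all genes were lower. Lgi1, a secreted organiser of AMPA receptor synapses, measured 41.8, 24.8, 39.8 and 36.4 CPM in control and 6.54, 9.43, 8.88 and 15.4 CPM in Brn3bcKO. The groups lay apart, with Lgi1 lower in Brn3bcKO (log2 fold change -1.81, SE 0.26, adjusted p = 0.00337). Olfm2, an olfactomedin, fell (log2 fold change -1.03, SE 0.17, adjusted p = 0.00846), while C1ql3, a secreted synapse organiser, rose (log2 fold change 1.28, SE 0.24, adjusted p = 0.0153). Of 36 SNARE and release genes, Stx3, the syntaxin of ribbon synapses, rose from 373 ± 67 to 638 ± 53.8 CPM (log2 fold change 0.77, SE 0.17, adjusted p = 0.0282) and Bsn, which encodes the active zone protein bassoon, from 109 ± 13.4 to 223 ± 89.9 CPM (log2 fold change 1.03, SE 0.25, adjusted p = 0.044). Leave-one-out fits lost C1ql3 (1 library, 0.0594 without control 4), Stx3 (4 libraries, 0.133 without control 3) and Bsn (6 libraries, 0.15 without control 4).

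Signalling genes also gave single calls. Kitl, the ligand of the KIT receptor, measured 154, 213, 170.1 and 256 CPM in control and 45.5, 71.7, 79.1 and 80.00 CPM in Brn3bcKO. Each control library held more Kitl than any Brn3bcKO library (log2 fold change -1.52, SE 0.21, adjusted p = 0.00264). In the TGF-beta and BMP list 4 of 34 tested fell and none rose, where 1.39% of all genes were lower. Those that fell were Tmeff2, Tgfbr2, a TGF-beta receptor (from 8.65 ± 1.9 to 2.05 ± 0.57 CPM; log2 fold change -2.05, SE 0.33, adjusted p = 0.00634), Fstl1 (-0.84, adjusted p = 0.0161) and Rgma (-1.49, adjusted p = 0.0489). The list's median was 0.18, above that of all genes, and when scaled on IP-enriched genes 4 members were higher and 4 lower. Srgap1, a Slit-Robo GTPase-activating protein, measured 52.1, 39.4, 57.9 and 60.8 CPM in control and 13.2, 14.4, 25.2 and 16.8 CPM in Brn3bcKO. The fall of Srgap1 left no overlap between the groups (log2 fold change -1.59, SE 0.22, adjusted p = 0.0028). Rhoc went from 24.9 ± 4.66 to 8.26 ± 3.46 CPM (log2 fold change -1.60, SE 0.28, adjusted p = 0.0105), and Tiam2, a RAC exchange factor, rose from 3.58 ± 1.32 to 11.3 ± 1.76 CPM (log2 fold change 1.68, SE 0.31, adjusted p = 0.0134). Of 29 ephrin, netrin and slit pathway genes, Epha4 fell from 54.2 ± 5.87 to 19.8 ± 12.3 CPM (log2 fold change -1.44, SE 0.31, adjusted p = 0.0282). Mapk4, an atypical MAP kinase outside the lists, rose from 19.7 ± 5.53 to 48.1 ± 17.1 CPM (log2 fold change 1.29, SE 0.26, adjusted p = 0.0201). H2-Ab1, which encodes an MHC class II chain, fell from 52.6 ± 10.4 to 18.5 ± 3.86 CPM (log2 fold change -1.50, SE 0.21, adjusted p = 0.00257), the only call among 20 MHC and complement genes. With 1 library left out, the calls lost were Fstl1 (3 libraries, 0.061 without control 4), Rgma (8 libraries, 0.14 without control 3), Tiam2 (2 libraries, 0.0577 without control 4), Epha4 (5 libraries, 0.0974 without control 3) and Mapk4 (2 libraries, 0.0936 without control 3).

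Among the most abundant genes that fell, Pcp4, which encodes a calmodulin-binding peptide, measured 1328, 1473, 1980.1 and 2001 CPM in control and 735, 772, 765 and 733 CPM in Brn3bcKO. No Brn3bcKO library of Pcp4 reached the lowest control library (log2 fold change -1.17, SE 0.17, adjusted p = 0.004). The others were Tpi1, a glycolytic enzyme (from 3321 ± 487 to 1979.9 ± 240.4 CPM; log2 fold change -0.75, SE 0.17, adjusted p = 0.0376), Snrpn, an imprinted splicing factor (from 2844 ± 340.4 to 1716 ± 310.5 CPM; log2 fold change -0.73, SE 0.18, adjusted p = 0.0493), Zwint (from 2159 ± 329 to 1297 ± 118 CPM; log2 fold change -0.74, SE 0.17, adjusted p = 0.0356) and Uchl1, a neuronal ubiquitin hydrolase (from 1703 ± 254 to 964 ± 92 CPM; log2 fold change -0.82, SE 0.17, adjusted p = 0.0214). Their calls other than that of Pcp4 were lost with a library left out: Tpi1 (5 libraries, 0.142 without control 3), Snrpn (7 libraries, 0.16 without control 4), Zwint (7 libraries, 0.133 without control 3) and Uchl1 (4 libraries, 0.0974 without control 3). Hk2, the hexokinase of photoreceptor glycolysis, measured 105, 103, 127 and 116 CPM in control and 222, 203, 209 and 282 CPM in Brn3bcKO. Each Brn3bcKO library held more Hk2 than any control library (log2 fold change 1.02, SE 0.16, adjusted p = 0.00539). Of 32 glycolysis and lactate genes tested, Hk2 was the only gene that rose, where 0.89% of all genes were higher. Tpi1 and Pdk1 (log2 fold change -0.83, SE 0.20, adjusted p = 0.0466, lost without 7 of the libraries, at up to 0.131) fell, where 1.39% of all genes were lower.

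Chromatin regulators were called in 3 of 65 genes, with 3 higher and none lower (median 0.32), where 0.89% of all genes were higher, and 58 of the 65 had a log2 fold change above 0. Anp32e, a chaperone that removes the histone variant H2A.Z, measured 253, 260.1, 236 and 245 CPM in control and 421, 462, 597 and 605 CPM in Brn3bcKO. The rise of Anp32e left no overlap between the groups (log2 fold change 1.07, SE 0.16, adjusted p = 0.00499). Tet3, a DNA demethylase, went from 73.5 ± 11 to 139 ± 38.1 CPM (log2 fold change 0.92, SE 0.20, adjusted p = 0.0268) and Chd7, a chromatin remodeller, from 113 ± 13.6 to 190.4 ± 47.8 CPM (log2 fold change 0.75, SE 0.18, adjusted p = 0.0489). The list's call count was 26 when scaled on IP-enriched genes and 1 without Brn3bcKO 2 and 3. Transcript length moved with the values over all genes: in the longest of 5 length bins, 5098 bases and over, the median log2 fold change was 0.16 and 0.72% of genes were lower, and in the shortest, up to 1697 bases, it was -0.06 and 2.23% were lower. Calls lost when 1 library was left out were Tet3 (5 libraries, 0.0974 without control 3) and Chd7 (7 libraries, 0.169 without control 3).

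Single calls came from further families. Gng3, a G-protein gamma subunit of neurons, measured 687, 570.5, 700.2 and 795 CPM in control and 440.3, 327, 314 and 285 CPM in Brn3bcKO. All 4 Brn3bcKO libraries lay below all 4 of control (log2 fold change -1.01, SE 0.18, adjusted p = 0.0105). Asic2, an acid-sensing channel, went from 29 ± 3.77 to 14.4 ± 1.79 CPM (log2 fold change -1.01, SE 0.18, adjusted p = 0.0129). Stmn1, a microtubule regulator (from 236 ± 45.8 to 119 ± 38.2 CPM; log2 fold change -0.98, SE 0.22, adjusted p = 0.0322), and Prph, which encodes the intermediate filament peripherin (from 359.7 ± 97.9 to 193 ± 30.9 CPM; log2 fold change -0.90, SE 0.20, adjusted p = 0.0322), fell. Among genes that rose, Elovl2, an elongase of the very long fatty acids of photoreceptor membranes, measured 48.7, 67.7, 49.1 and 62.7 CPM in control and 99.6, 103, 111 and 117 CPM in Brn3bcKO. Elovl2 rose in each Brn3bcKO library (log2 fold change 0.92, SE 0.16, adjusted p = 0.00924). Msi1, an RNA-binding protein of progenitors and photoreceptors, went from 67.8 ± 5.99 to 121 ± 11.6 CPM (log2 fold change 0.83, SE 0.14, adjusted p = 0.00974), Dscaml1, an adhesion molecule of inner retinal neurons, from 33.3 ± 8.01 to 69.96 ± 12.4 CPM (log2 fold change 1.07, SE 0.20, adjusted p = 0.0147) and Zfp385b, a zinc finger protein, from 57.2 ± 13.2 to 129 ± 23.8 CPM (log2 fold change 1.18, SE 0.20, adjusted p = 0.00846). Gtf2ird1, a transcription factor of the TFII-I family, measured 16.8, 13.1, 11.8 and 9.53 CPM in control and 19, 27.9, 24.6 and 80.1 CPM in Brn3bcKO, highest in Brn3bcKO 4 (log2 fold change 1.58, SE 0.39, adjusted p = 0.0497), and Tcea3, a transcription elongation factor, rose from 4.65 ± 1.52 to 11.7 ± 2.39 CPM (log2 fold change 1.31, SE 0.29, adjusted p = 0.0339). Slc6a4, the serotonin transporter, was chosen after its values were seen and is near the detection limit, at 0, 0.304, 0 and 0.561 CPM in control and 2.87, 1.65, 2.7 and 3.53 CPM in Brn3bcKO. Each Brn3bcKO library held more Slc6a4 than any control library, and the gene had enough counts to be tested only through these libraries, so that no test is given. Calls lost with a library left out were Gng3 (1 library, 0.0521 without control 4), Asic2 (2 libraries, 0.0521 without control 4), Stmn1 (6 libraries, 0.124 without control 3), Prph (5 libraries, 0.108 without control 3), Elovl2 (1 library, 0.0537 without control 3), Msi1 (2 libraries, 0.057 without control 4), Dscaml1 (1 library, 0.058 without control 4), Gtf2ird1 (7 libraries, 0.166 without control 4) and Tcea3 (6 libraries, 0.0905 without Brn3bcKO 3).

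Cone photoreceptor genes were the largest group that rose. Opn4-Cre also tags cones in part, as the study's text states, and in the first count table, which compared IPs with whole-retina inputs, 14 of these 15 mRNAs had a log2 IP-over-input ratio above 0, up to 3.45 for Cnga3. The study counted fewer HA-labelled cells in the ganglion cell layer of Brn3bcKO retinas and no significant change in the density of HA-labelled cones. For selected transcripts it normalized ipRGC-enriched genes by that ratio, a step not applied to the values here. Of 15 cone genes tested, 10 were higher and none lower (median 0.89), where 0.89% of all genes were higher. Pde6h, the cone phosphodiesterase inhibitor, measured 1723, 858, 901 and 1347 CPM in control and 2890.3, 2329, 2635 and 3063 CPM in Brn3bcKO. The rise of Pde6h left no overlap between the groups (log2 fold change 1.18, SE 0.22, adjusted p = 0.0158). Pde6c, the catalytic subunit, measured 180.00, 192, 146 and 139 CPM in control and 317, 277, 345 and 421 CPM in Brn3bcKO. Pde6c rose in each Brn3bcKO library (log2 fold change 1.05, SE 0.17, adjusted p = 0.00838). Cngb3 went from 82 ± 17 to 180.2 ± 43.1 CPM (log2 fold change 1.14, SE 0.20, adjusted p = 0.00948) and Cnga3 from 26.7 ± 7.05 to 54.1 ± 10.3 CPM (log2 fold change 1.02, SE 0.21, adjusted p = 0.0233), which together form the cone channel. The cone transducin genes Gnat2 (0.84, adjusted p = 0.0466) and Gngt2 (0.94, adjusted p = 0.0207) rose, as did Guca1a (0.92, adjusted p = 0.0218), Kcne2 (0.85, adjusted p = 0.0266) and Grk1 (0.63, adjusted p = 0.0487). Thrb, whose product sets cone opsin choice, measured 340.1, 219, 177 and 159 CPM in control and 439, 372, 527 and 788 CPM in Brn3bcKO. Each Brn3bcKO library held more Thrb than any control library (log2 fold change 1.25, SE 0.27, adjusted p = 0.0272). The cone opsins Opn1sw (0.66, adjusted p = 0.108) and Opn1mw (0.71, adjusted p = 0.101) and cone arrestin, Arr3 (0.82, adjusted p = 0.0547), were not called. The count of 10 was 1 without control 3, 0 without control 4, 3 without control 2 or Brn3bcKO 4, 5 without Brn3bcKO 1 or 3 and 6 without Brn3bcKO 2 and 3, and 0 in the 6 male libraries alone. With a library left out, the calls lost were Pde6h (2 libraries, 0.0777 without control 3), Pde6c (1 library, 0.0503 without control 4), Cngb3 (2 libraries, 0.0537 without control 3), Cnga3 (5 libraries, 0.0914 without control 3), Gnat2 (7 libraries, 0.176 without control 4), Gngt2 (5 libraries, 0.108 without control 3), Guca1a (5 libraries, 0.113 without control 3), Kcne2 (6 libraries, 0.125 without control 3), Grk1 (8 libraries, 0.168 without control 4) and Thrb (5 libraries, 0.124 without control 3). Of 16 rod genes none was called by the quasi-likelihood test of edgeR (median 0.46), while 9 were higher and 0 lower at an unadjusted p under 0.05. DESeq2 called 4 higher and 0 lower. The likelihood ratio test of edgeR called 2 higher and 0 lower, and edgeR scaled on IP-enriched genes called 8 higher and 0 lower.

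Other photoreceptor and inner retinal genes rose too. Crx, the homeobox factor of photoreceptors and bipolar cells, went from 509 ± 55.2 to 901 ± 112 CPM (log2 fold change 0.82, SE 0.16, adjusted p = 0.017), Rcvrn, which encodes recoverin, from 599 ± 103 to 1053 ± 187 CPM (log2 fold change 0.81, SE 0.18, adjusted p = 0.0339) and Rbp3, the retinoid carrier between photoreceptors and pigment epithelium, from 979 ± 171 to 1729.8 ± 309 CPM (log2 fold change 0.82, SE 0.18, adjusted p = 0.0339). Of 14 bipolar genes, Otx2 (0.77, adjusted p = 0.0167), Lrtm1 (0.91, adjusted p = 0.0206) and Cabp5 (0.86, adjusted p = 0.0322) rose, where 0.89% of all genes were higher. That count of bipolar genes was 0 without control 4, without Brn3bcKO 3 and without Brn3bcKO 2 and 3. Slc1a2, a glutamate transporter, measured 439, 431, 296 and 264 CPM in control and 669, 596, 662 and 1357 CPM in Brn3bcKO, highest in Brn3bcKO 4. The rise of Slc1a2 left no overlap between the groups (log2 fold change 1.20, SE 0.27, adjusted p = 0.033). Plekhb1, a pleckstrin-homology protein abundant in photoreceptors, rose from 855 ± 208 to 1534 ± 252 CPM (log2 fold change 0.84, SE 0.19, adjusted p = 0.0375). Slc1a7, the retinal glutamate transporter, went from 52.1 ± 5.88 to 90.2 ± 10.2 CPM (log2 fold change 0.79, SE 0.15, adjusted p = 0.0167). Of 13 amacrine genes none was called by the quasi-likelihood test of edgeR, while 4 were higher and 0 lower at an unadjusted p under 0.05. DESeq2 and the likelihood ratio test of edgeR each called 1 higher and 0 lower, and edgeR scaled on IP-enriched genes called 4 higher and 0 lower. Of 12 Muller glia and astrocyte genes the quasi-likelihood test called none, while 4 were higher and 0 lower at an unadjusted p under 0.05. DESeq2 called 0 higher and 0 lower, and edgeR scaled on IP-enriched genes called 4 higher and 0 lower. With a library left out, the calls lost were Crx (3 libraries, 0.0808 without control 4), Rcvrn (6 libraries, 0.133 without control 3), Rbp3 (6 libraries, 0.147 without control 3), Otx2 (3 libraries, 0.0895 without control 3), Lrtm1 (4 libraries, 0.0901 without control 4), Cabp5 (6 libraries, 0.119 without control 4), Slc1a2 (5 libraries, 0.133 without control 4), Slc1a7 (3 libraries, 0.0807 without control 3) and Plekhb1 (7 libraries, 0.157 without control 4).

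The largest rises were those of lens crystallins. Cryaa held 0, 1, 15 and 8 counts in control 1 to 4 and 68, 1860, 1043 and 154 in Brn3bcKO 1 to 4 (log2 fold change 7.03). Crybb2 held 0, 0, 17 and 2 counts in control and 34, 662, 696 and 88 in Brn3bcKO (log2 fold change 6.24). Cryba2 held 0 counts in each control library and 13, 342, 183 and 51 in Brn3bcKO, at least 183-fold higher against a floor of 3 counts over the control group, and Cryba1 held 1 count in all of control against 728, a ratio of 677 with an exact 95% binomial interval of 121 to 26778 that again covers counting error only. Every Brn3bcKO library exceeded every control library for these genes, and the highest were Brn3bcKO 2 and 3 for each of them. Of 24 lens genes with counts, 7 had enough to be tested, some of them only through the Brn3bcKO libraries where they were high. Their number is therefore no result, and no test is given for any of them but Cryab. The others of the 7 were Crygs (7.26), Crybb3 (3.57) and Cryab (2.15). With a library left out the call of Cryab was lost (6 libraries, 0.14 without control 3). Among those too low to test, Mip, the lens water channel, held 6 counts in control and 63 in Brn3bcKO. In the first count table the same 24 genes summed to 83.9 to 495 CPM in the 4 inputs and 28.6 to 134 CPM in the 4 IPs.

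Several classes of genes that every cell uses had no member called by the quasi-likelihood test of edgeR with TMM scaling over all genes. With that scaling the likelihood ratio test of edgeR called 3 immediate early genes, 3 apoptosis genes and 1 clock gene higher. It called 1 oxidative phosphorylation, 1 stress response and 1 apoptosis gene lower. Of 77 cytosolic ribosomal protein genes (median 0.00), 2 were higher and 4 lower at an unadjusted p under 0.05, DESeq2 called 0 higher and 0 lower, and edgeR scaled on IP-enriched genes called 5 higher and 0 lower. Of 57 nuclear oxidative phosphorylation genes (median -0.12, and 0.19 when scaled on IP-enriched genes), 0 were higher and 5 lower at an unadjusted p under 0.05, DESeq2 called 0 higher and 1 lower, and edgeR scaled on IP-enriched genes called 2 higher and 0 lower. Of 36 genes of the unfolded protein and integrated stress responses (0.02), 3 were higher and 2 lower at an unadjusted p under 0.05, DESeq2 called 0 higher and 2 lower, and edgeR scaled on IP-enriched genes called 3 higher and 0 lower. Of 29 genes of apoptosis and p53 signalling (0.05), 5 were higher and 3 lower at an unadjusted p under 0.05, DESeq2 called 4 higher and 1 lower, and edgeR scaled on IP-enriched genes called 4 higher and 0 lower. Of 26 immediate early genes, which neurons switch on with activity (0.41), 5 were higher and 1 lower at an unadjusted p under 0.05, DESeq2 called 2 higher and 0 lower, and edgeR scaled on IP-enriched genes called 7 higher and 0 lower, and of 22 circadian clock genes (0.12), 4 were higher and 0 lower at an unadjusted p under 0.05, DESeq2 called 1 higher and 0 lower, and edgeR scaled on IP-enriched genes called 6 higher and 0 lower. Most of these medians lay within 0.2 of that of all genes, the immediate early genes being the exception. Among classes not listed above, 10 mitochondrial genome genes (median 0.45) and 33 antioxidant genes (-0.23) had no call either. Of 40 proteasome and ubiquitin genes (-0.25), 1 was lower, where 1.39% of all genes were. When scaled on IP-enriched genes these medians were 0.75, 0.06 and 0.05.

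The calls were then set against the first count table, which holds IPs and whole-retina inputs from mice with and without Rpl22-HA and with Brn3b intact. The genes that fell had a median log2 IP-over-input ratio of 1.71 there, those that rose -0.12 and all tested genes 0.18. Of 536 genes enriched over 4-fold in the IP (log2 above 2), 75 (14%) were lower and 15 (2.8%) higher, and of 984 genes depleted over 2-fold (log2 below -1), none was lower and 18 (1.83%) higher. The median log2 fold change in Brn3bcKO went from 0.31 in the most depleted bin to -0.32 in the most enriched. Of the 194 genes that fell 191 (98.5%), and of the 124 that rose 72 (58.1%), had a higher mean CPM in the Rpl22-HA IP than in the IP without the tag, against 47.9% of all tested. The part of RNA from untagged cells in this gradient was not tested.

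**Figure D5:**
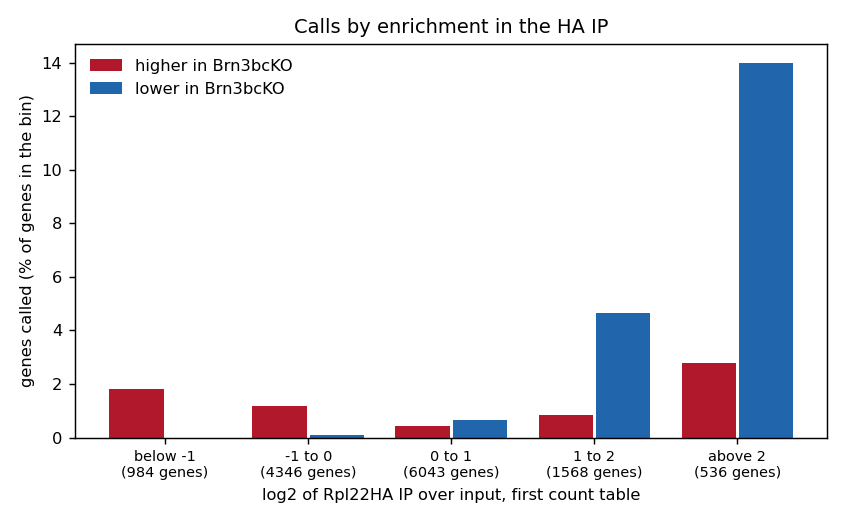
Percent of genes called higher (red) or lower (blue) in Brn3bcKO in 5 bins of the log2 Rpl22-HA IP-over-input ratio from the first count table, with the number of genes in each bin. Genes called lower made up 14% of the most enriched bin and 0% of the most depleted.

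Promoter sequence was read for the genes called. POU4 factors bind AT-rich sites, searched here as ATAATTAAT on both strands and as the core ATTAAT, which reads the same on both strands and lies within the longer motif. RefSeq promoters of 300 bases, 250 before and 50 after a start (GRCm38.p6), were matched by symbol for 10109 of the 13930 genes tested. The core was found for 11 of 149 genes that fell (7.38%), 3 of 88 that rose (3.41%) and 291 of all 10109 (2.88%), and in 4.75% of all 32851 promoters of the table. The longer motif was found for 1 gene that fell, 1 that rose and 16 of all (0.158%), and in 0.274% of all promoters. A match is a description and no binding was measured. Both promoters with the longer motif and the 2 with the core whose genes fell most are shown, with the matched bases in capitals:
Gabrg1 (chr5:70842568-70842867, minus strand): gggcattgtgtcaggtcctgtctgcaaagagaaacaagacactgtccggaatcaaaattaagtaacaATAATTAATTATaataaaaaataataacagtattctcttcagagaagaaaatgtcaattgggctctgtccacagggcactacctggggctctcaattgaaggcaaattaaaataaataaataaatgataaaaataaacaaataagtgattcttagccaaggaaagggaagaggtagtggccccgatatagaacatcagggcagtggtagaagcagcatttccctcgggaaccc
Otx2 (chr14:48665060-48665359, minus strand): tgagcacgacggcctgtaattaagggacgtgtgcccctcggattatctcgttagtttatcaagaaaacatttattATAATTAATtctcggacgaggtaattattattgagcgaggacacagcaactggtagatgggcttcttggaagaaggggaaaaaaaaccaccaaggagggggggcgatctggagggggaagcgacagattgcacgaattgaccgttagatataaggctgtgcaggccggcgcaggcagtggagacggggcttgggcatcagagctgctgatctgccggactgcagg
Cpne4 (chr9:104569405-104569704, plus strand): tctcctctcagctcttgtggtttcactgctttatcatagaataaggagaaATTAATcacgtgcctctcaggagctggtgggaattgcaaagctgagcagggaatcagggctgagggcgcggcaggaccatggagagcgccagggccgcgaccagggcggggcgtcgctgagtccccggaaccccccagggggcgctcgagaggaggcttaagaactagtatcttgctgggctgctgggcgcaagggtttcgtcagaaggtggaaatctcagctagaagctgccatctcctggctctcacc
Pvalb (chr15:78206351-78206650, minus strand): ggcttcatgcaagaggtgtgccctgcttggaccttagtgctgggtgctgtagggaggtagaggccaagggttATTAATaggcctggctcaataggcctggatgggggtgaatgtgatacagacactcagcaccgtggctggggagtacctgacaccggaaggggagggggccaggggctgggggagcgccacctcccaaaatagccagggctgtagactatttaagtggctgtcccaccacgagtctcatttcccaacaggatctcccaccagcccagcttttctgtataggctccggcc
The first belongs to a gene that fell (-1.56), the second to a gene that rose (0.77) and the last 2 to genes that fell (-2.42 and -1.65).

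Position in the genome was read because a targeted allele and its flanking chromosome are inherited together. Within 10 Mb of Pou4f2 on either side 211 other genes were tested, of which 3 fell and none rose (1.42%, against 2.28% of all genes). They were Scoc (log2 fold change -1.15, SE 0.24, adjusted p = 0.0252), Pbx4, a homeobox factor (log2 fold change -1.39, SE 0.30, adjusted p = 0.0265), and Slc5a5, an iodide transporter (log2 fold change -1.68, SE 0.38, adjusted p = 0.0354), and each call was lost with a library left out, at adjusted p up to 0.0769, 0.0798 and 0.134. The median size of the log2 fold change in that window was 0.21, against 0.25 over all genes. By chromosome the share called ran from 0.656% (X) to 3.77% (14) among the autosomes and X, with 2.37% on chromosome 8.

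Testing all 43975 transcripts gave no gene with transcripts called in opposite directions, among 8902 genes with 2 or more tested transcripts. In 42 genes a transcript other than the chosen transcript was called while the chosen transcript was not called, among them Rbpms. The spread within groups was alike, with a median SD of log2 CPM (1 CPM added) of 0.28 in control and 0.29 in Brn3bcKO. Of the 318 called genes 31 share exon bases with another tested gene on either strand, and counts of these cannot be told apart from their partner's where counting did not use strand, and the sources used here do not state it. Of the genes named, these are Tmem163 with Mgat5, Pcp4 with Igsf5, Uchl1 with Uchl1os, Tpi1 with Spsb2, Snrpn with Snurf and Gm38393, Tiam2 with Tfb1m, Sox4 with Gm26735, Rgma with A730056A06Rik, C1ql3 with Gm37811, Camk1 with Ogg1 and Timp3 with Syn3.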

How the data were processed

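Per the labels and the study's methods, polysome RNA of retinas at postnatal day 60 was immunoprecipitated with an antibody against HA, made into Smart-seq3 libraries, read as 37 bp pairs and aligned to mm10 with the Smart-seq3 pipeline. The authors deposited whole-number counts per transcript, with no normalization, for 117860 transcripts of 47454 symbols, and the annotation release was not given. Totals were 12994498 to 20350881 counts a library, and counting error is smallest for abundant genes. Each symbol was read through its transcript with the highest mean count. edgeR 4.0.16 in R 4.3.3 was used: filterByExpr kept 13930 genes, TMM scaled the libraries, and the quasi-likelihood test with group alone compared 4 control with 4 Brn3bcKO libraries, with Benjamini-Hochberg adjustment over all genes. The test was checked on simulated counts first. DESeq2 1.42.0, another scaling, filter, gene set, sex as covariate, replicate block and libraries left out were alternatives. Matched counts showed no library deposited more than once. The study gives the libraries of a group as separate mice.

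The members and lists were chosen with earlier results of these data known. Genes are named by a rule: Pou4f2, Opn4 and Eomes; per direction the 14 largest changes with a mean count of at least 50, the 6 most abundant called genes and up to 4 called members of each list by p; called genes within 10 Mb of Pou4f2. For lists with no called member the rule adds the 2 smallest p, given here as counts only. Some genes, including 1 called gene that this rule names, are not reported here. Uncalled members named beside these, and 1500009L16Rik, Anxa5, Crx, Crybb3, Esyt1, Eya1, Grk1, Hpca, S100a10, Slc6a4, Tppp3 and Zfp385b, were chosen after their values were seen. Of the 13930 genes, 13890 (99.7%) matched the annotation. Columns of the first count table served only for IP enrichment and lens levels.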

Additional observations from a re-analysis of the deposited data

Results flagged for a closer look

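Of 332 groups of 4 libraries checked, 2 for each of 166 named genes, 19 held a library far from the other 3, its gap to the nearest being over 0.829 of the group's range. Chance alone gives about 1 in 20 groups. Levels are CPM. Calb2 was at 614 in control 2, below the 950 to 979 of the other 3, and Calb2 was at 295 in Brn3bcKO 3, above the 177 to 185 of the other 3. Chd7 was at 133 in control 1, above the 106 to 107 of the other 3, and Chrna6 was at 367 in control 3, above the 247 to 264 of the other 3. Cryba1 was at 0.14 in control 4, where the other 3 held none, and Crybb2 was at 1.82 in control 3, above the 0 to 0.28 of the other 3. Gtf2ird1 was at 80.1 in Brn3bcKO 4, above the 19 to 27.9 of the other 3, and Irx6 was at 59.3 in Brn3bcKO 2, below the 90.4 to 93.6 of the other 3. Kcnv2 was at 346 in control 1, above the 179 to 205 of the other 3, and Lrtm1 was at 217 in Brn3bcKO 4, above the 141 to 148 of the other 3. Meis2 was at 38.9 in control 2, above the 26.2 to 28.4 of the other 3, and Nrn1 was at 221 in Brn3bcKO 2, below the 277 to 287 of the other 3. Ntsr2 was at 11.9 in control 4, above the 1.7 to 2.89 of the other 3, and Otx2 was at 138 in control 2, above the 101 to 108 of the other 3. Plekhb1 was at 1170 in control 1, above the 739 to 768 of the other 3, and Rbpms was at 341 in control 4, above the 199 to 215 of the other 3. Rcvrn was at 1330 in Brn3bcKO 1, above the 936 to 988 of the other 3, and Slc1a2 was at 1360 in Brn3bcKO 4, above the 596 to 669 of the other 3. Zwint was at 1470 in Brn3bcKO 3, above the 1220 to 1260 of the other 3. The calls of Calb2, Chrna6 and Nrn1 held in each fit that left out a library. Ntsr2 had enough counts to be tested only through control, and Cryba1 and Crybb2 only through Brn3bcKO, so that no test is given for them.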

How the results depend on the processing

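With 4 libraries a group the adjusted p of many genes lay near the threshold, and counts of calls moved more than folds did. Against 124 higher and 194 lower, the calls numbered 378 and 495 with DESeq2 (276 genes without an adjusted p), 370 and 413 with the likelihood ratio test, 105 and 208 with RLE scaling, 1468 and 119 with scaling on IP-enriched genes, 392 and 370 with no filter, 127 and 259 with a mean count of at least 50, 95 and 128 when all transcripts were fitted, 268 and 267 over genes higher in Rpl22-HA IPs, 95 and 151 with sex as a covariate and 10 and 65 in male libraries alone. Leaving out 1 library gave 17 to 147 higher and 69 to 233 lower, and leaving out Brn3bcKO 2 and 3 (chosen after seeing the data) gave 43 and 52, with fewer samples in each case. Pou4f2 (-0.85, adjusted p = 0.0537) passed with DESeq2 (-0.86, 0.0068), the likelihood ratio test (-0.85, 0.00921), no filter (-0.86, 0.00105), a mean count of at least 50 (-0.88, 0.0406), genes higher in Rpl22-HA IPs (-0.73, 0.0323) and the block (-0.86, 0.00254), and ran from -1.01 to -0.75 with a library left out, passing without control 1 (0.0239) or Brn3bcKO 4 (0.0433). Pou4f2 did not pass with RLE scaling (0.0507), scaling on IP-enriched genes (0.0843), all transcripts fitted (0.0852), sex as a covariate (0.0613) or male libraries alone (0.139). Nor did it pass without any other single library (0.0733 to 0.176). With the replicate number as a block the calls numbered 453 and 507, among them all 124 and 194. The study describes the 2 groups as littermates, but neither it nor the sample titles say which libraries shared a litter. The replicate numbers were not taken as pairs: same-numbered libraries' deviations correlated at 0.411, 0.23, 0.0339 and 0.0921. Control 1 and control 2 correlated best with their own number, and control 3 and control 4 with another. The block ended no call among the 166 named genes and added 7.

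Of 9 reversals, all in uncalled genes, scaling on IP-enriched genes gave Opn4 0.10, Eomes 0.044, Irx3 0.16, Irx4 0.16 and Chrna4 0.013. Leaving out Brn3bcKO 2 and 3 gave Opn4 0.0084 and Irx3 0.012. With 1 library left out, Irx4 ran from -0.35 to 0.13 (without Brn3bcKO 2). In male libraries Adcyap1 was at -0.022. The cause was not tested. Of the 166 genes, 62 kept their side of the threshold in each fit that left out a library and 40 in every alternative run, and 98 lost a call without Brn3bcKO 2 and 3. The counts of Ntsr2 and Slc6a4 and of lens genes in control were low.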

Other observations

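Further calls came from families outside those described, with the same edgeR test and adjusted p. By that test 0.89% of all genes were higher and 1.39% lower. Of 24 chloride channel and cotransporter genes, Clic4, an intracellular chloride channel protein, rose from 12.9 ± 0.805 to 24.6 ± 1.4 CPM (log2 fold change 0.93, SE 0.18, adjusted p = 0.0153) and its relative Clic1 fell from 75.4 ± 9.12 to 43.5 ± 7.41 CPM (log2 fold change -0.79, SE 0.17, adjusted p = 0.026). Of 29 sphingolipid genes, Degs1, which makes ceramide, fell (log2 fold change -0.80, SE 0.18, adjusted p = 0.0371), as did Sgpp2, a sphingosine-1-phosphate phosphatase (log2 fold change -0.66, SE 0.16, adjusted p = 0.0428). Of 39 growth factor pathway genes, Pdgfa, the ligand through which RGCs act on retinal astrocytes, fell from 27.7 ± 1.6 to 15.8 ± 2.17 CPM (log2 fold change -0.82, SE 0.18, adjusted p = 0.0282). Of 25 WNT, Notch and Hedgehog pathway genes, the receptor gene Fzd1 fell from 8.39 ± 2.59 to 2.94 ± 0.796 CPM (log2 fold change -1.50, SE 0.33, adjusted p = 0.033). Cdhr1, a photoreceptor cadherin, was the only call among 32 cadherins and rose from 552 ± 65 to 956 ± 144 CPM (log2 fold change 0.79, SE 0.17, adjusted p = 0.0247), and Cflar, an inhibitor of caspase-8, measured 5.55, 8.52, 5.89 and 3.79 CPM in control and 12, 13, 23.4 and 19.1 CPM in Brn3bcKO, higher in every Brn3bcKO library (log2 fold change 1.51, SE 0.30, adjusted p = 0.0183). Leaving out 1 library ended the calls of Clic4 (3 libraries, 0.0609 without Brn3bcKO 3), Clic1 (5 libraries, 0.119 without control 3), Degs1 (7 libraries, 0.129 without control 3), Sgpp2 (8 libraries, 0.116 without control 4), Pdgfa (6 libraries, 0.122 without control 3), Fzd1 (6 libraries, 0.14 without control 3), Cdhr1 (6 libraries, 0.125 without control 3) and Cflar (3 libraries, 0.0766 without control 3).

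The other called genes that the naming rule gives came 1 or 2 to a list. The shares called over all genes were 0.89% higher and 1.39% lower. Of 51 small-GTPase regulators Arhgap24 rose (log2 fold change 0.76, SE 0.16, adjusted p = 0.0252), of 46 immunoglobulin adhesion molecules Negr1, which acts in neurite growth, rose (log2 fold change 0.98, SE 0.24, adjusted p = 0.0496), and of 40 matrix and protease genes Timp3, a metalloproteinase inhibitor, rose (log2 fold change 0.70, SE 0.17, adjusted p = 0.0478). Trak2, which couples mitochondria to kinesin, rose as 1 of 37 motor genes (log2 fold change 0.73, SE 0.18, adjusted p = 0.0463), Hspb6, a small heat shock protein, among 32 chaperone genes (log2 fold change 0.70, SE 0.17, adjusted p = 0.0483) and Sdc2, a syndecan, among 31 genes of lipid anchoring and glypicans (log2 fold change 0.93, SE 0.20, adjusted p = 0.0266). Lower were Tpm3, a tropomyosin (log2 fold change -0.86, SE 0.17, adjusted p = 0.0213), Camk1, a calcium- and calmodulin-dependent kinase (log2 fold change -0.62, SE 0.15, adjusted p = 0.0489), Gng4, a G-protein gamma subunit (log2 fold change -0.85, SE 0.20, adjusted p = 0.0445), Rbfox1, a splicing factor of neurons (log2 fold change -0.76, SE 0.19, adjusted p = 0.0498), and Ctsl, a lysosomal protease (log2 fold change -0.64, SE 0.15, adjusted p = 0.0363). Rasal1, a RAS GTPase-activating protein, was low, at 5.09, 4.41, 4.17 and 5.19 CPM in control and 2.07, 1.5, 0.899 and 0.706 CPM in Brn3bcKO (log2 fold change -1.90). Rasal1 had enough counts to be tested only through the control libraries, so that no test is given for it. The calls lost with a library left out were Arhgap24 (5 libraries, 0.122 without control 3), Negr1 (6 libraries, 0.178 without control 3), Timp3 (7 libraries, 0.173 without control 3), Trak2 (7 libraries, 0.175 without control 3), Hspb6 (7 libraries, 0.173 without control 3), Sdc2 (6 libraries, 0.124 without control 3), Tpm3 (4 libraries, 0.0936 without control 3), Camk1 (8 libraries, 0.142 without control 4), Gng4 (7 libraries, 0.133 without control 4), Rbfox1 (6 libraries, 0.127 without control 3) and Ctsl (6 libraries, 0.133 without control 3).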
